A study of Drosophila melanogaster with 12 samples.

Results

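Transposable element insertions of the Drosophila melanogaster reference genome carry their own FlyBase identifiers, which begin with FBti, and each marks 1 copy of an element at 1 position. The deposited count tables held 2625 such insertions among 17589 features, while the reference annotation holds 5734. Every feature in the count tables annotated as a transposable element under an FBti identifier was taken, without regard to differences between genotypes. A feature with almost no reads has no row there, so the set describes insertions with reads. RNA was measured in heads of 2-day-old flies. Each sample was a pool of 20 heads, 10 male and 10 female, and each genotype had 4 pools. In ND-75KDstrong flies the pan-neuronal driver nSyb-Gal4 expressed the HMS00853 RNAi line against ND-75, the NDUFS1 subunit of mitochondrial complex I. In ND-75KDweak flies the same driver expressed the less efficient KK108222 RNAi line, and in control flies it was crossed to w[1118] with no RNAi line. The methods add Tub-Gal80ts, a temperature-sensitive Gal4 repressor, to the driver in all groups. The knockdown acted in neurons while the RNA came from whole heads, and the RNAi lines came from different stock collections. Because a fly stock carries its own set of insertions, the strength of the knockdown and the genetic background of each line cannot be told apart in any comparison below.

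Transposable elements are DNA segments that copy or move themselves within a genome. LTR retrotransposons such as copia and LINE-like elements such as jockey and Doc move through an RNA intermediate, whereas DNA transposons such as hobo (the H element), pogo and mariner move as DNA. HeT-A, TART-A, TART-C and TAHRE are retrotransposons that maintain Drosophila chromosome ends in place of telomerase. INE-1 is an old non-autonomous element whose short copies are scattered through introns and heterochromatin. In fly tissues, small RNAs bound to Argonaute and Piwi proteins hold elements in check, with the piRNA branch acting mainly in the gonads. Copies of a family can be nearly identical, so a read from one copy may be counted at another. Reads from an intron or exon that contains an insertion can also be counted at the insertion. A value below is therefore the number of reads assigned to an insertion, not proof of transcription from that copy.

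Library totals lay between 19309456 and 34169998 counts. ND-75 itself was present at 552.0, 534.9, 459.0 and 650.1 CPM (counts scaled to library size after TMM normalization) in ND-75KDstrong heads, at 634.5, 648.2, 619.7 and 562.3 CPM in ND-75KDweak heads, and at 709.2, 858.4, 1391 and 827.6 CPM in control heads. All 8 knockdown libraries were below all 4 control libraries, and control replicate 3 stood apart from the others. Summed neuronal markers ranged over 1179.9 to 2102.1 CPM in ND-75KDstrong heads, 1766.4 to 1926.7 CPM in ND-75KDweak heads and 1156.2 to 2165.2 CPM in control heads. The 5 germline markers osk, nos, bam, vas and bgcn summed to at most 0.9008, 0.6659 and 0.8448 CPM in any ND-75KDstrong, ND-75KDweak and control library. Fat body markers summed to 8140.0 to 16918.5, 12958.1 to 17946.5 and 6027.9 to 10700.6 CPM in the same order of genotypes. All 4 members stood above control in ND-75KDstrong heads, but Lsp2, apolpp and Yp1, at 1.39, 0.46 and 0.30 log2 units, did not pass. In the comparisons with ND-75KDweak heads the members did not share a direction. In ND-75KDweak against control heads apolpp stood at 0.92 log2 units (edgeR adjusted p = 0.0627). Fbp1 averaged 27.8 ± 17.2, 0.539 ± 0.228 and 7.35 ± 1.66 CPM and was higher in ND-75KDstrong and lower in ND-75KDweak than in control heads (1.92 ± 0.43 and -3.75 ± 0.32 log2 units, edgeR adjusted p 0.0453 and 0.000101), while Lsp2 and Yp1 were higher in ND-75KDweak than in control heads. Photoreceptor markers summed to 19356.9 to 25197.1 CPM in ND-75KDstrong heads, 26605.6 to 31912.0 CPM in ND-75KDweak heads and 21610.3 to 27706.1 CPM in control heads, with no overlap between the knockdowns. Most of this sum was ninaE, the only 1 of its 6 members called between the knockdowns. In ND-75KDstrong against ND-75KDweak heads ninaE stood at -0.51 ± 0.14 log2 units (edgeR adjusted p = 0.0384). Rh4, Rh6, trp and norpA stood there at -0.20, -0.06, -0.22 and -0.17 log2 units. Only Rh3 was positive, at 0.20 ± 0.11. None of these other members passed (edgeR adjusted p between 0.321 and 0.867). The part of these differences in the results below was not tested. The labels do not say whether pools came from separate crosses, so every p-value rests on the variation between pools, which may be technical. In bulk heads, fewer cells of a type and less RNA per cell cannot be told apart.

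The 2625 insertions belonged to 124 families. INE-1 gave 1080 of them with a median length of 190 bp. LTR retrotransposons gave 653 insertions in 61 families with a median of 4830 bp, LINE-like elements 444 with a median of 1238.5 bp and terminal inverted repeat (TIR) DNA transposons 388 with a median of 963 bp. Another 33 were foldback elements, 24 were telomeric retrotransposons and 3 were not classified. Lengths ran over 20 to 66001 bp. In the FlyBase annotation of the BDGP6 assembly, 1463 insertions lay in introns, 127 overlapped an exon and 1035 overlapped no gene. They were spread over arms 2R with 669, 3L with 474, 2L with 400, X with 337, 3R with 319 and the small, largely heterochromatic chromosome 4 with 426.

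Even among these 2625 insertions, most had very few reads. The median insertion held 13 counts over the 12 libraries together, 1487 reached 10 counts and only 53 reached 1000. A library detected between 1246 and 1714 insertions in ND-75KDstrong heads, 1380 and 1582 in ND-75KDweak heads and 1010 and 1684 in control heads. After a filter of about 10 counts in as many libraries as a genotype has, 440 insertions could be tested in at least 1 comparison and 328 in all. An insertion can pass this filter through the genotype in which it is high alone, so counts of tested insertions are descriptive.

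Insertions took a small share of all counts. The share was 0.09505%, 0.1262%, 0.1344% and 0.06785% in the ND-75KDstrong libraries, 0.08402%, 0.07032%, 0.07493% and 0.08115% in the ND-75KDweak libraries, and 0.08297%, 0.06493%, 0.04979% and 0.09648% in the control libraries. The 3 genotypes overlapped. The means were 0.106% ± 0.0305 in ND-75KDstrong heads, 0.0776% ± 0.00616 in ND-75KDweak heads and 0.0735% ± 0.0204 in control heads (SD, n = 4 each). ND-75KDstrong replicate 4 and control replicate 3 had the lowest shares of their groups. The 10 insertions with most counts held 21.99% of all insertion counts.

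The classes had different orders of the genotypes. Telomeric retrotransposons summed to 101.6, 146.6, 142.3 and 74.73 CPM in ND-75KDstrong heads, against 24.2, 14.24, 23.09 and 23.18 CPM in ND-75KDweak heads and 17.97, 17.11, 22.43 and 20.71 CPM in control heads. Every ND-75KDstrong library lay far above every library of the other genotypes, whose ranges overlapped. LTR retrotransposons summed to 349.2 ± 48.7 CPM in ND-75KDstrong heads, 202.8 ± 13.9 CPM in ND-75KDweak heads and 184.5 ± 45.4 CPM in control heads. INE-1 insertions, by contrast, summed to 233.3 ± 71.4, 255.5 ± 41.6 and 235.5 ± 56.1 CPM in the ND-75KDstrong, ND-75KDweak and control heads, and LINE-like insertions to 184.3 ± 43.9, 167.1 ± 10.5 and 167.1 ± 45.2 CPM. TIR DNA transposons lay between these patterns at 145.2 ± 24.7, 124.0 ± 10.2 and 110.6 ± 22.6 CPM. These sums are descriptions over all insertions of a class and carry no test.

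**Figure D1:**
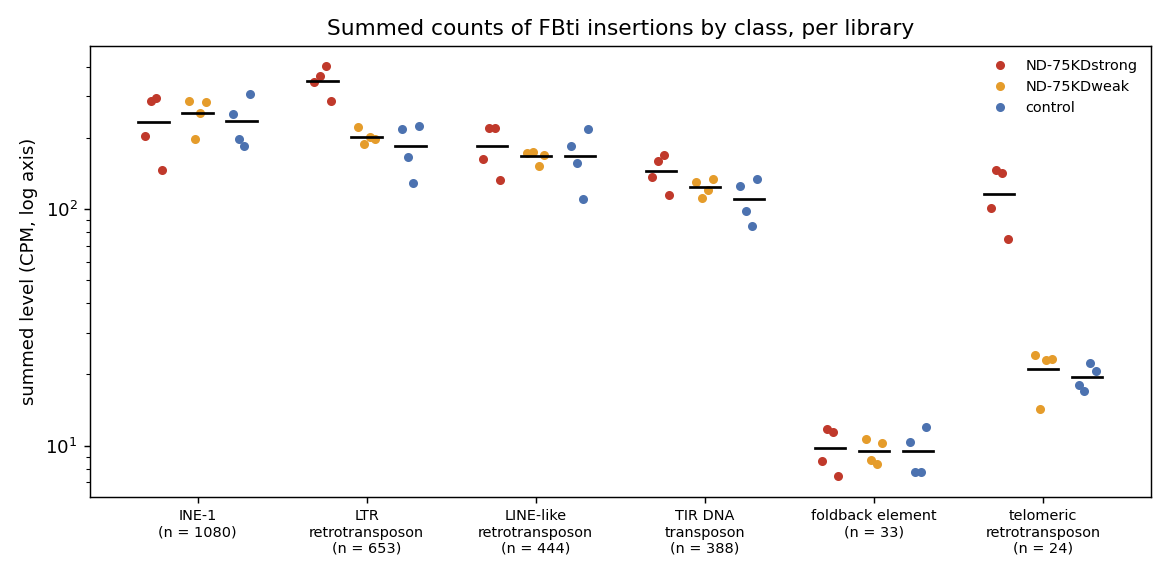
Summed CPM of the insertions of each class in each library (points) and the genotype mean (bars), on a log axis. Telomeric retrotransposons averaged 116.3 CPM in ND-75KDstrong heads, 21.18 CPM in ND-75KDweak heads and 19.55 CPM in control heads, whereas INE-1 averaged 233.3, 255.5 and 235.5 CPM in the same genotypes.

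Per kilobase of insertion, the highest level averaged over the 3 genotypes was that of INE-1{}3383 (FBti0061444, 4:1041513-1041596), an 84-bp copy in an intron of CaMKII, the calcium/calmodulin-dependent kinase of synapses, with 73.19 CPM per kb. Very short copies gain most from division by length, and HeT-A{}6281, only 20 bp long, ranked next at 28.46 CPM per kb. Among insertions of 500 bp or longer, INE-1{}3385 (4:1042174-1042714), also in CaMKII, led with 24.17 CPM per kb. It was followed by hopper2{}4186 in an intron of nrv3, a Na,K-ATPase beta subunit, with 17.78 CPM per kb and by INE-1{}3381 in CaMKII with 11.49 CPM per kb. These copies lay within transcribed genes. INE-1{}3385 had 14.6 ± 4.73 CPM in ND-75KDstrong heads, 10.3 ± 1.13 CPM in ND-75KDweak heads and 14.4 ± 3.62 CPM in control heads, and CaMKII itself had 348.3 ± 69.8, 323.2 ± 19.5 and 327.3 ± 70.7 CPM in the same genotypes. Neither INE-1{}3385, INE-1{}3381, INE-1{}3383 nor hopper2{}4186 passed the test in any comparison (edgeR quasi-likelihood test, Benjamini-Hochberg adjusted p between 0.188 and 0.998).

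The insertion with the most counts was Doc{}CHKov1[Doc1420] (FBti0019430, 3R:25324412-25328927), a LINE-like element of 4516 bp within an exon of CHKov1 on the same strand. It had 2090, 1497, 2413 and 1321 counts in ND-75KDstrong heads, 902, 916, 1104 and 1187 in ND-75KDweak heads and 1161, 1222, 637 and 1913 in control heads. Its mean level was 60.9 ± 6.0, 41.0 ± 5.06 and 47.7 ± 15.6 CPM in these genotypes. The ND-75KDstrong and control libraries overlapped. It was higher in ND-75KDstrong than in ND-75KDweak heads by 0.56 ± 0.13 log2 units (SE, edgeR adjusted p = 0.0165), a call lost without any 1 of ND-75KDstrong replicates 1 or 3 or ND-75KDweak replicates 1, 3 or 4 (adjusted p between 0.00481 and 0.0629 over the 8 omissions). The CHKov1 gene differed by 0.28 log2 units with an adjusted p of 0.11.

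To ask which insertions differed under strong knockdown, ND-75KDstrong heads were set against control heads. Of 384 insertions tested, 33 were higher and 5 lower in ND-75KDstrong heads, shares of 8.594% and 1.302%, at a Benjamini-Hochberg adjusted p below 0.05 in edgeR. Over all 10522 features tested, 1.78% were higher and 0.589% lower. All 33 and all 5 exceeded 1 log2 unit, yet the median insertion stood at 0.02 log2 units against -0.01 for all features. Copies of copia made up 16 of the 33 and copies of HeT-A 8. The count of lower insertions was 3 without control replicate 1, 2 or 4.

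LTR and telomeric retrotransposons held nearly all calls. Of 108 LTR insertions tested, 21 were higher and 3 lower in ND-75KDstrong heads, and of 16 telomeric insertions 9 were higher and 0 lower. Of 141 INE-1 insertions 0 passed in either direction by edgeR, with 4 higher and 2 lower at an unadjusted p below 0.05 and 1 higher by DESeq2. LINE-like elements gave 1 higher and 1 lower of 59, TIR elements 2 higher and 1 lower of 57, and none of the 3 foldback insertions passed. Calls were also counted by length. Among insertions of 4000 bp or longer, 26 of 91 were higher and 3 lower in ND-75KDstrong heads, whereas 1 of 151 insertions shorter than 500 bp was higher. The long calls included all the higher copia copies, while INE-1 insertions had a median length of 190 bp. Length and family thus go together here, and length apart from family was not tested.

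**Figure D2:**
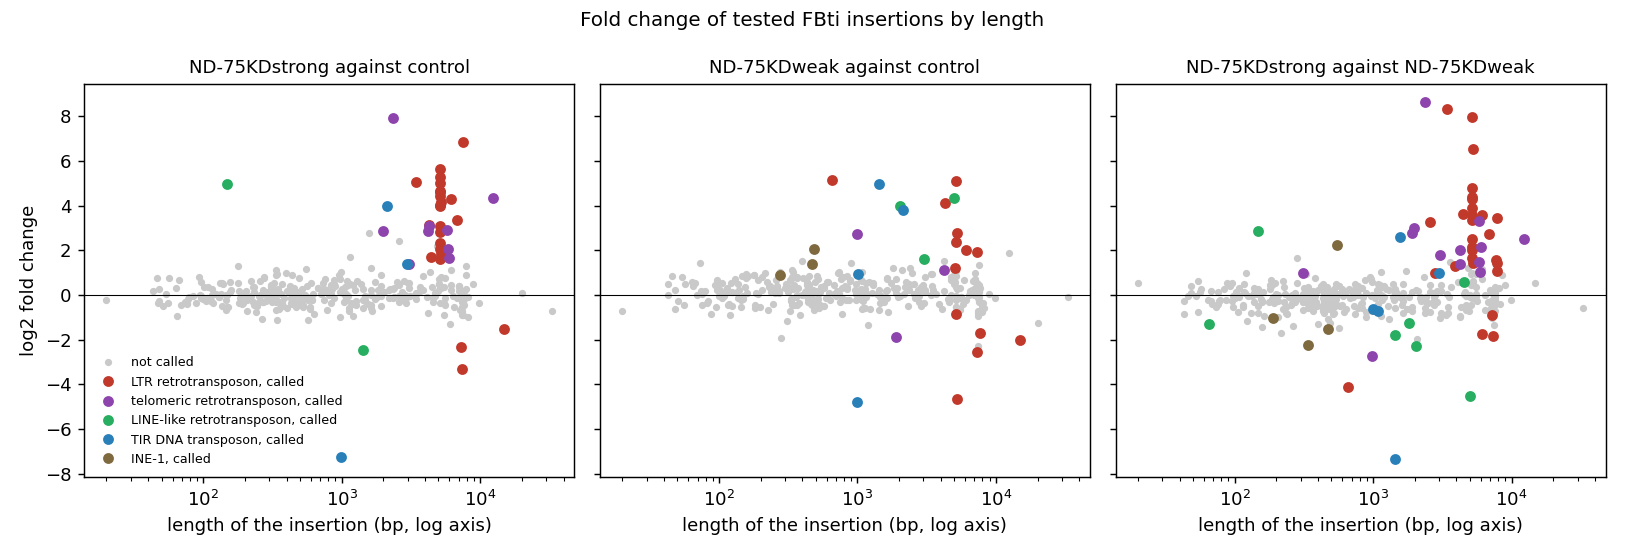
Fitted log2 fold change of each tested insertion against its length in bp (log axis) in the 3 comparisons, with called insertions coloured by class. In ND-75KDstrong against control heads 26 of the 33 higher insertions were 4000 bp or longer, and fitted folds of insertions with 0 to 3 counts in a genotype depend on the prior count. Length and family go together here.

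copia, an LTR retrotransposon that encodes Gag and a reverse transcriptase, gave the largest group of calls. Of its 26 insertions, 16 could be tested in ND-75KDstrong against control heads and all 16 were higher. Several of them passed the count filter through the ND-75KDstrong libraries alone, and similar copies can share reads. The count is therefore a description and not a set of separate results, as are the counts of tested copies per family below. These tested copies were 4424 to 6856 bp long, and the copies tested in no comparison had a median of 5145 bp. Summed over the family, copia stood at 167.9, 163.8, 195.6 and 154.3 CPM in ND-75KDstrong heads, 37.77, 29.86, 29.63 and 27.7 CPM in ND-75KDweak heads and 22.97, 18.48, 16.88 and 20.18 CPM in control heads. No library of one genotype overlapped another. For most single insertions named here, separation of the libraries of a called pair of genotypes was a condition of their choice, so it describes them and supports nothing. The family sum was higher by 3.11 ± 0.17 log2 units in ND-75KDstrong than in control heads (edgeR adjusted p = 3.96e-06), by 0.69 ± 0.15 in ND-75KDweak than in control heads (adjusted p = 0.01995) and by 2.44 ± 0.14 in ND-75KDstrong than in ND-75KDweak heads (adjusted p = 1.51e-05).

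The copies of copia that carried these reads differed between the genotypes. copia{}631 held 15.68% of copia counts in ND-75KDstrong heads (13.72% to 17.46% over libraries), followed by copia{}293 with 11.93% and copia{}1684 with 9.838%. In ND-75KDweak heads copia{}293 led with 20.54%, followed by copia{}920 with 18.61% and copia{}387 with 13.31%. In control heads copia{}837 led with 23.44% (19.69% to 32.16%), followed by copia{}1467 with 20.09% and copia{}387 with 17.29%. These shares are over reads as assigned, and how reads shared by near-identical copies were assigned is not given in the sources used here.

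copia{}631 (FBti0018967, 2R:5217753-5222897) lies in an intron of Nipped-A, a subunit of histone acetyltransferase complexes, on the opposite strand. It had 931, 524, 1099 and 682 counts in ND-75KDstrong heads, 24, 11, 34 and 31 in ND-75KDweak heads and 18, 13, 11 and 11 in control heads. Only the ND-75KDstrong libraries stood apart. The difference from control was 5.64 ± 0.26 log2 units (adjusted p = 1.06e-06) and from ND-75KDweak 4.77 ± 0.19 (adjusted p = 1.05e-06). copia{}1391 (FBti0019405, 3R:20109593-20114740), outside genes, had 281, 188, 382 and 203 counts in ND-75KDstrong heads, 14, 20, 12 and 10 in ND-75KDweak heads and 7, 5, 4 and 6 in control heads, and was higher in ND-75KDstrong than in control heads by 5.29 ± 0.26 log2 units (adjusted p = 1.3e-06). copia{}1016 (FBti0020127, 3L:16684075-16689237), within introns of Lasp and CG43954, had 255, 194, 336 and 195 counts in ND-75KDstrong heads, 25, 14, 18 and 11 in ND-75KDweak heads and 9, 8, 6 and 11 in control heads, and was higher by 4.59 ± 0.23 log2 units than in control heads (adjusted p = 1.3e-06). For both copies the ND-75KDstrong libraries lay above all others.

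Other copia copies were higher than control in both knockdowns. copia{}293 (FBti0019110, 2L:2294097-2299243), outside genes, had 665, 457, 899 and 441 counts in ND-75KDstrong heads, 185, 99, 207 and 157 in ND-75KDweak heads and 31, 33, 37 and 26 in control heads. The 3 genotypes did not overlap. It was higher than in control heads by 3.99 ± 0.22 log2 units in ND-75KDstrong heads (adjusted p = 2.77e-06) and by 2.35 ± 0.26 in ND-75KDweak heads (adjusted p = 0.000403). copia{}920 (FBti0020031, 3L:3601354-3606606), in an intron of the cyclin-dependent kinase gene Eip63E, had 505, 411, 633 and 336 counts in ND-75KDstrong heads, 156, 105, 167 and 159 in ND-75KDweak heads and 20, 29, 12 and 27 in control heads. Its differences from control were 4.17 ± 0.25 log2 units in ND-75KDstrong heads (adjusted p = 5.64e-06) and 2.77 ± 0.27 in ND-75KDweak heads (adjusted p = 0.000165).

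copia{}1466 (FBti0019468, 3R:31330491-31335634), in an intron of CG34347, was nearly unread in control heads. It had 50, 19, 59 and 46 counts in ND-75KDstrong heads, 30, 26, 51 and 50 in ND-75KDweak heads and 2, 1, 1 and 0 in control heads. The knockdown genotypes overlapped and both stood clear of control. It was higher by 5.01 ± 0.57 log2 units in ND-75KDstrong than in control heads (adjusted p = 0.0006) and by 5.12 ± 0.50 in ND-75KDweak than in control heads (adjusted p = 0.000194), with -0.09 ± 0.26 between ND-75KDstrong and ND-75KDweak (adjusted p = 0.872).

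copia{}837 (FBti0018968, 2R:16539693-16544843), the leading copy in control heads, was called in opposite directions in the knockdowns. It had 462, 326, 551 and 361 counts in ND-75KDstrong heads, 68, 51, 77 and 53 in ND-75KDweak heads and 100, 90, 137 and 142 in control heads. Its level was 14.2 ± 0.565, 2.49 ± 0.519 and 4.59 ± 0.753 CPM in these genotypes. It was 1.62 ± 0.16 log2 units higher in ND-75KDstrong than in control heads (adjusted p = 0.000245) and -0.86 ± 0.22 in ND-75KDweak against control heads (adjusted p = 0.0376). The ND-75KDweak call was lost without ND-75KDweak replicate 3 or 4 or control replicate 1 or 4 (adjusted p between 0.0465 and 0.127 over the omissions).

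At copia{}67 (FBti0019586, X:5927149-5932295), in an intron of CG3726, the ND-75KDweak libraries were nearly empty. It had 98, 86, 121 and 111 counts in ND-75KDstrong heads, 1, 0, 0 and 0 in ND-75KDweak heads and 2, 2, 7 and 3 in control heads. The ratio of ND-75KDstrong to ND-75KDweak was 356 with a 95% counting interval of 63.5 to 14088, and the difference from control was 4.64 ± 0.37 log2 units (adjusted p = 5.12e-05). Intervals of this kind, and the floors used for groups with 0 counts, cover counting error only. The other tested copies were also higher in ND-75KDstrong than in control heads, among them copia{}1684 by 3.33 ± 0.22, copia{}399 in CadN2, a neuronal cadherin gene, by 3.07 ± 0.17 and copia{}1467 in the kinase gene Gprk2 by 2.04 ± 0.23 log2 units (adjusted p 1.1e-05, 2.64e-06 and 0.000535).

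**Figure D3:**
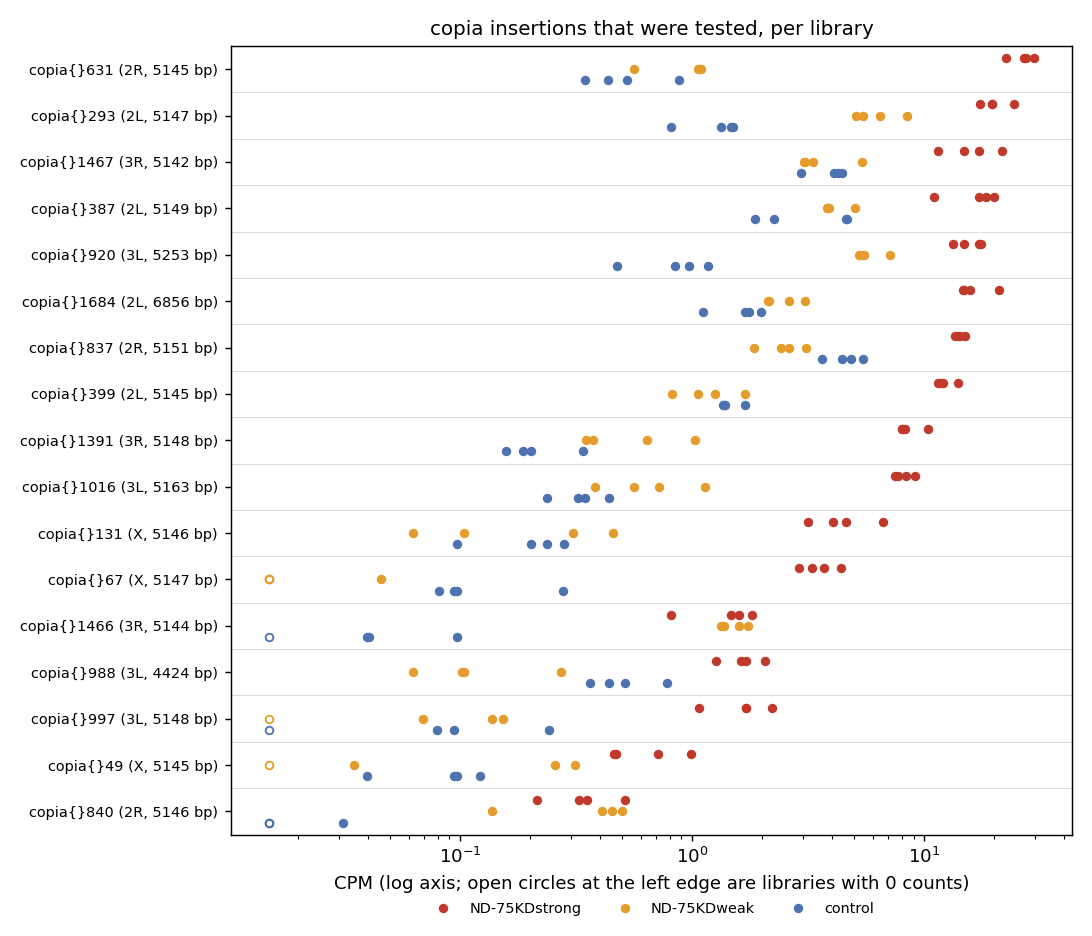
CPM of copia insertions in each library of each genotype (points, log axis, open circles for 0 counts). copia{}631 averaged 26.7 CPM in ND-75KDstrong heads, 0.95 CPM in ND-75KDweak heads and 0.545 CPM in control heads, whereas copia{}837 averaged 14.2, 2.49 and 4.59 CPM.

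Telomeric retrotransposons formed the other main group. HeT-A, which encodes a Gag protein but no reverse transcriptase, had 18 insertions, all near the tip of X or the end of chromosome 4. Its family sum stood at 92.28, 136.6, 132.2 and 67.77 CPM in ND-75KDstrong heads, 19.91, 10.35, 18.02 and 17.78 CPM in ND-75KDweak heads and 13.6, 12.38, 13.43 and 16.83 CPM in control heads. ND-75KDstrong stood apart, while ND-75KDweak and control overlapped. The sum was higher by 2.92 ± 0.25 log2 units in ND-75KDstrong than in control heads (edgeR adjusted p = 0.000151) and by 2.69 ± 0.27 in ND-75KDstrong than in ND-75KDweak heads (adjusted p = 0.000305). Between ND-75KDweak and control heads it was 0.25 ± 0.20 log2 units, which did not pass (adjusted p = 0.511). Of 13 HeT-A insertions tested against control, 8 were higher in ND-75KDstrong heads, and of 10 tested in ND-75KDweak heads 1 was higher and 1 lower.

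HeT-A{}5504 (FBti0063565, X:114047-116407) carried 45.98% of HeT-A counts in ND-75KDstrong heads (43.46% to 48.57% over libraries). It had 1362, 1547, 2243 and 782 counts in ND-75KDstrong heads, 5, 2, 2 and 3 in ND-75KDweak heads and 1, 0, 10 and 10 in control heads. This copy of 2361 bp was thus close to unread outside the ND-75KDstrong genotype. It was higher there by 7.90 ± 0.54 log2 units than in control heads (adjusted p = 1.33e-05) and by 8.66 ± 0.41 than in ND-75KDweak heads (adjusted p = 3.7e-06). In ND-75KDweak heads HeT-A{}6268 led the family with 24.16% of its counts, and in control heads HeT-A{}6278 with 23.1%, both on chromosome 4.

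The copy next to it, HeT-A{}4795 (FBti0062856, X:109756-114008), was read in every genotype. It had 474, 416, 625 and 273 counts in ND-75KDstrong heads, 101, 43, 115 and 121 in ND-75KDweak heads and 29, 42, 40 and 69 in control heads. It was higher than in control heads by 3.10 ± 0.22 log2 units in ND-75KDstrong heads (adjusted p = 2.15e-05) and by 1.11 ± 0.26 in ND-75KDweak heads (adjusted p = 0.0255). The ND-75KDweak call was lost without ND-75KDweak replicate 1, 3 or 4 or control replicate 1 or 2 (adjusted p between 0.00511 and 0.0975). HeT-A{}6256 (FBti0102097, X:107843-109755), on its other side, had 43, 41, 62 and 22 counts in ND-75KDstrong heads, 4, 2, 9 and 6 in ND-75KDweak heads and 19, 14, 27 and 16 in control heads. It was lower in ND-75KDweak than in control heads (-1.87 ± 0.43 log2 units, adjusted p = 0.0242), a call lost without ND-75KDweak replicate 1, 2 or 4 or control replicate 1 (adjusted p between 0.0229 and 0.0814). On chromosome 4, HeT-A{}6270, HeT-A{}6262 and HeT-A{}6268 were higher in ND-75KDstrong than in control heads by 2.86 ± 0.29, 2.91 ± 0.37 and 1.67 ± 0.26 log2 units (adjusted p 0.000257, 0.00138 and 0.00573).

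TART elements encode the reverse transcriptase that HeT-A lacks. TART-A{}6261 (FBti0102104, 4:1320141-1332489), of 12349 bp, had 145, 125, 209 and 61 counts in ND-75KDstrong heads, 13, 14, 25 and 28 in ND-75KDweak heads and 2, 2, 3 and 16 in control heads. It was higher in ND-75KDstrong than in control heads by 4.32 ± 0.51 log2 units (adjusted p = 0.00086), and in ND-75KDweak against control heads it stood at 1.85 ± 0.52 (adjusted p = 0.0617). The TART-A sum was 7.61 ± 1.53 CPM in ND-75KDstrong heads, 2.19 ± 0.247 CPM in ND-75KDweak heads and 3.39 ± 1.40 CPM in control heads, and passed against ND-75KDweak (1.78 ± 0.19 log2 units, adjusted p = 0.000464) but not against control (1.17 ± 0.28, adjusted p = 0.0673). TART-C{}6275 (FBti0102118, 4:1288110-1289098) had another order, with 11, 1, 4 and 4 counts in ND-75KDstrong heads, 21, 21, 40 and 32 in ND-75KDweak heads and 6, 3, 1 and 7 in control heads. It was higher in ND-75KDweak than in control heads by 2.72 ± 0.43 log2 units (adjusted p = 0.0036).

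**Figure D4:**
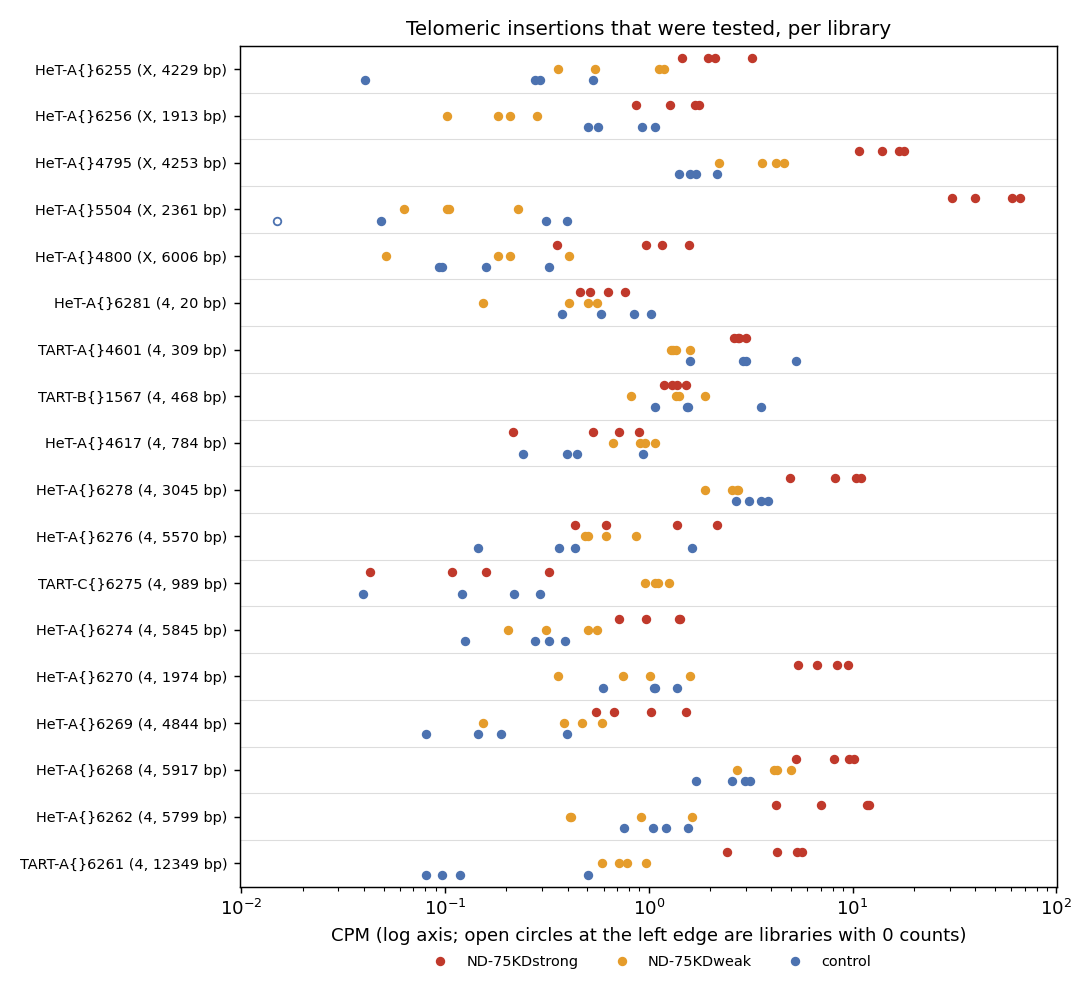
CPM of telomeric retrotransposon insertions in each library of each genotype (points, log axis, open circles for 0 counts). HeT-A{}5504 averaged 49.6 CPM in ND-75KDstrong heads, 0.124 CPM in ND-75KDweak heads and 0.19 CPM in control heads, and TART-C{}6275 averaged 0.158, 1.1 and 0.168 CPM.

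The annotated gene nearest to the HeT-A copies at the X tip is lncRNA:CR40469. It had 53, 39, 46 and 65 counts in ND-75KDstrong heads, 50, 37, 125 and 106 in ND-75KDweak heads and 2, 1, 2 and 1 in control heads. It was higher in both knockdowns than in control heads, by 4.78 ± 0.45 log2 units in ND-75KDstrong (adjusted p = 0.000173) and by 5.56 ± 0.44 in ND-75KDweak heads (adjusted p = 5.92e-05), and between the knockdowns it stood at -0.77 ± 0.30 (adjusted p = 0.145). HeT-A{}5504 lies 6086 bp from it, with HeT-A{}4800 in between. Cadps, the gene next to the chromosome 4 array, did not pass in any comparison.

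Outside copia and the telomeric elements, few insertions were higher in ND-75KDstrong than in control heads. diver{}782 (FBti0018971, 2R:8777967-8784099), an LTR retrotransposon outside genes, had 174, 177, 265 and 92 counts in ND-75KDstrong heads, 8, 6, 17 and 20 in ND-75KDweak heads and 5, 9, 6 and 10 in control heads. Only ND-75KDstrong stood apart, by 4.31 ± 0.33 log2 units from control (adjusted p = 3.16e-05) and by 3.58 ± 0.33 from ND-75KDweak (adjusted p = 0.000169). H{}84 (FBti0019603, X:8293303-8296283), a hobo copy in an intron of the nicotinic acetylcholine receptor gene nAChRalpha3, had 1758, 1176, 2199 and 1098 counts in ND-75KDstrong heads, 535, 478, 836 and 861 in ND-75KDweak heads and 554, 421, 278 and 749 in control heads. Of the insertions called in this comparison it had the highest ND-75KDstrong level, 51.3 ± 6.66 CPM against 26.2 ± 2.61 CPM in ND-75KDweak and 19.6 ± 7.04 CPM in control heads. The difference from control was 1.38 ± 0.25 log2 units (adjusted p = 0.0146, and 0.0505 without control replicate 2), and from ND-75KDweak 0.96 ± 0.12 (adjusted p = 0.000863).

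The 5 insertions lower in ND-75KDstrong than in control heads were Stalker2{}106, S2{}1603, blood{}2438, Quasimodo{}1100 and jockey{}79. Quasimodo{}1100 (FBti0020211, 3L:22812270-22819638), an LTR element in an intron of jim, had 3, 3, 2 and 1 counts in ND-75KDstrong heads, 7, 6, 1 and 1 in ND-75KDweak heads and 10, 13, 25 and 37 in control heads (-3.33 ± 0.51 log2 units in ND-75KDstrong against control, adjusted p = 0.00439). jockey{}79 (FBti0019598, X:7480844-7482276), a LINE-like fragment, had 13, 9, 2 and 4 counts in ND-75KDstrong heads, 24, 15, 25 and 21 in ND-75KDweak heads and 23, 40, 23 and 56 in control heads (-2.49 ± 0.50, adjusted p = 0.0245). The jockey{}79 call was lost without ND-75KDstrong replicate 4 or control replicate 1, 2 or 4 (adjusted p between 0.0257 and 0.079).

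For the weak knockdown, 358 insertions were tested against control, of which 19 were higher and 7 lower in ND-75KDweak heads, shares of 5.307% and 1.955%. Over all 10415 features tested, 2.56% were higher and 3.98% lower, so the share of lower insertions was under that of all features. The median insertion stood at 0.17 log2 units and the median feature at -0.01. LTR insertions gave 8 higher and 5 lower of 95, telomeric insertions 2 higher and 1 lower of 14, INE-1 3 higher of 135, LINE-like 3 higher of 57 and TIR elements 3 higher and 1 lower of 54. The calls were thus spread over more classes and families than in ND-75KDstrong heads, though the difference in spread was not tested. The count of lower insertions was 13 without control replicate 3, and 32 higher and 23 lower were called with ND-75KDweak replicate 2 and control replicate 3 left out together.

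Several insertions were read almost only in ND-75KDweak heads. Quasimodo{}3602 (FBti0061663, 2R:4543280-4543938), an LTR fragment of 659 bp, had 4, 3, 7 and 1 counts in ND-75KDstrong heads, 33, 43, 93 and 67 in ND-75KDweak heads and 3, 1, 0 and 2 in control heads. It was higher in ND-75KDweak than in control heads by 5.16 ± 0.51 log2 units (adjusted p = 0.000194), and ND-75KDstrong against ND-75KDweak stood at -4.14 ± 0.38 (adjusted p = 0.000169). hopper{}762 (FBti0019974, 2R:7139978-7141411), a DNA transposon, had 0 counts in all ND-75KDstrong libraries, 15, 14, 28 and 19 in ND-75KDweak heads and 0, 2, 0 and 0 in control heads. The ratio of ND-75KDweak to control was 38.1 with a counting interval of 10.2 to 320.5, and ND-75KDstrong was at least 29.6-fold lower than ND-75KDweak, taking 3 counts over the group as the floor. jockey{}817 (FBti0018987, 2R:12819501-12824510), a nearly complete LINE-like element of 5010 bp, had 0, 0, 2 and 1 counts in ND-75KDstrong heads, 10, 19, 20 and 18 in ND-75KDweak heads and 1, 0, 0 and 2 in control heads, a ratio of ND-75KDweak to control of 22.4 (7.35 to 111.4).

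G6{}2320 (FBti0060381, 2R:6488849-6490886) and gypsy5{}103 (FBti0019622, X:11194484-11201847) were also higher in ND-75KDweak than in control heads, but were read in the other genotypes too. The LINE-like G6{}2320 had 15, 8, 17 and 4 counts in ND-75KDstrong heads, 66, 18, 47 and 46 in ND-75KDweak heads and 4, 1, 2 and 4 in control heads (3.99 ± 0.51 log2 units in ND-75KDweak against control, adjusted p = 0.0011). The LTR element gypsy5{}103 had 45, 30, 34 and 13 counts in ND-75KDstrong heads, 65, 83, 118 and 104 in ND-75KDweak heads and 28, 30, 7 and 35 in control heads (1.91 ± 0.37, adjusted p = 0.0103). INE-1{}5914 (FBti0063975, 4:448779-449248), in an intron of the kinase gene CaMKI, was 1 of the 3 INE-1 copies called and had 77, 59, 110 and 36 counts in ND-75KDstrong heads, 177, 71, 239 and 207 in ND-75KDweak heads and 62, 48, 57 and 103 in control heads (1.36 ± 0.27, adjusted p = 0.0111). 3S18{}853 (FBti0018869, 2R:18575853-18581982), in an intron of GEFmeso, stood at 2.00 ± 0.43 log2 units in ND-75KDweak against control heads (adjusted p = 0.0184), a call lost without ND-75KDweak replicate 4 or control replicate 2 (adjusted p between 0.0215 and 0.0574).

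Both knockdowns were compared with the same 4 control libraries, so their calls are not independent. The overlap of calls over all features was not counted here. The overlaps given here and in the next paragraphs therefore do not set insertions apart from other features. Higher than control in both were 6 insertions, 18.18% of the 33 called in ND-75KDstrong and 31.58% of the 19 called in ND-75KDweak: copia{}293, copia{}920, copia{}1466, HeT-A{}4795, pogo{}1350 and flea{}810. pogo{}1350 (FBti0019365, 3R:13135881-13138000), a full-length DNA transposon in introns of timeout and 2mit, had 44, 35, 86 and 33 counts in ND-75KDstrong heads, 34, 21, 46 and 45 in ND-75KDweak heads and 4, 2, 1 and 3 in control heads. It was higher by 3.97 ± 0.45 log2 units in ND-75KDstrong (adjusted p = 0.000596) and by 3.80 ± 0.41 in ND-75KDweak than in control heads (adjusted p = 0.000387). flea{}810 (FBti0018961, 2R:11297673-11301936), an LTR element in an exon of CG7741, had 30, 30, 24 and 17 counts in ND-75KDstrong heads, 28, 46, 57 and 41 in ND-75KDweak heads and 0, 3, 3 and 4 in control heads, differences of 3.10 ± 0.53 and 4.11 ± 0.48 log2 units (adjusted p 0.00903 and 0.000585). For both insertions every knockdown library lay above every control library.

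Lower than control in both knockdowns were 3 insertions, 60% of the 5 and 42.86% of the 7 called lower. Stalker2{}106 (FBti0019625, X:11312119-11319407), an LTR element of 7289 bp outside genes, had 56, 34, 56 and 31 counts in ND-75KDstrong heads, 30, 23, 38 and 37 in ND-75KDweak heads and 210, 158, 118 and 276 in control heads. Its differences from control were -2.36 ± 0.27 log2 units in ND-75KDstrong (adjusted p = 0.0006) and -2.54 ± 0.26 in ND-75KDweak heads (adjusted p = 0.000227). S2{}1603 (FBti0059664, 3L:23080432-23081420), a DNA transposon fragment, had 0 counts in every ND-75KDstrong library, 0, 0, 2 and 0 in ND-75KDweak heads and 9, 13, 28 and 20 in control heads. ND-75KDstrong was at least 27.2-fold lower than control, and the ratio of ND-75KDweak to control was 0.0287 (0.0034 to 0.107).

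The last of the 3, blood{}2438 (FBti0060499, X:21716913-21731788), overlaps lncRNA:flam, the precursor of a piRNA cluster known from ovarian follicle cells. It had 26, 20, 44 and 9 counts in ND-75KDstrong heads, 10, 13, 10 and 23 in ND-75KDweak heads and 50, 60, 42 and 86 in control heads. Counts of lncRNA:flam were too low to test. The insertion stood at -2.02 ± 0.33 log2 units in ND-75KDweak against control heads (adjusted p = 0.00402) and at -1.52 ± 0.34 in ND-75KDstrong against control heads (adjusted p = 0.0459). The ND-75KDstrong call was lost without ND-75KDstrong replicate 1 or 2 or control replicate 1, 2 or 4 (adjusted p between 0.0379 and 0.143).

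Higher in ND-75KDstrong and lower in ND-75KDweak than in control heads were 2 insertions, copia{}837 and accord{}818, and 0 insertions had the opposite pair of calls. accord{}818 (FBti0018951, 2R:12862330-12867554), an LTR retrotransposon of 5225 bp in an intron of CG17574 on the opposite strand, had 249, 196, 391 and 116 counts in ND-75KDstrong heads, 0, 4, 0 and 4 in ND-75KDweak heads and 76, 37, 32 and 76 in control heads. ND-75KDstrong libraries lay above control libraries, and these above ND-75KDweak libraries. The insertion was lower in ND-75KDweak than in control heads (-4.68 ± 0.70 log2 units, adjusted p = 0.00251) and higher in ND-75KDstrong than in ND-75KDweak heads by 6.53 ± 0.59 (adjusted p = 0.00015). In ND-75KDstrong against control heads it stood at 1.81 ± 0.36 log2 units (adjusted p = 0.0229), a call lost without ND-75KDstrong replicate 1, 2 or 3 or control replicate 2 or 4 (adjusted p between 0.0081 and 0.0746).

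**Figure D5:**
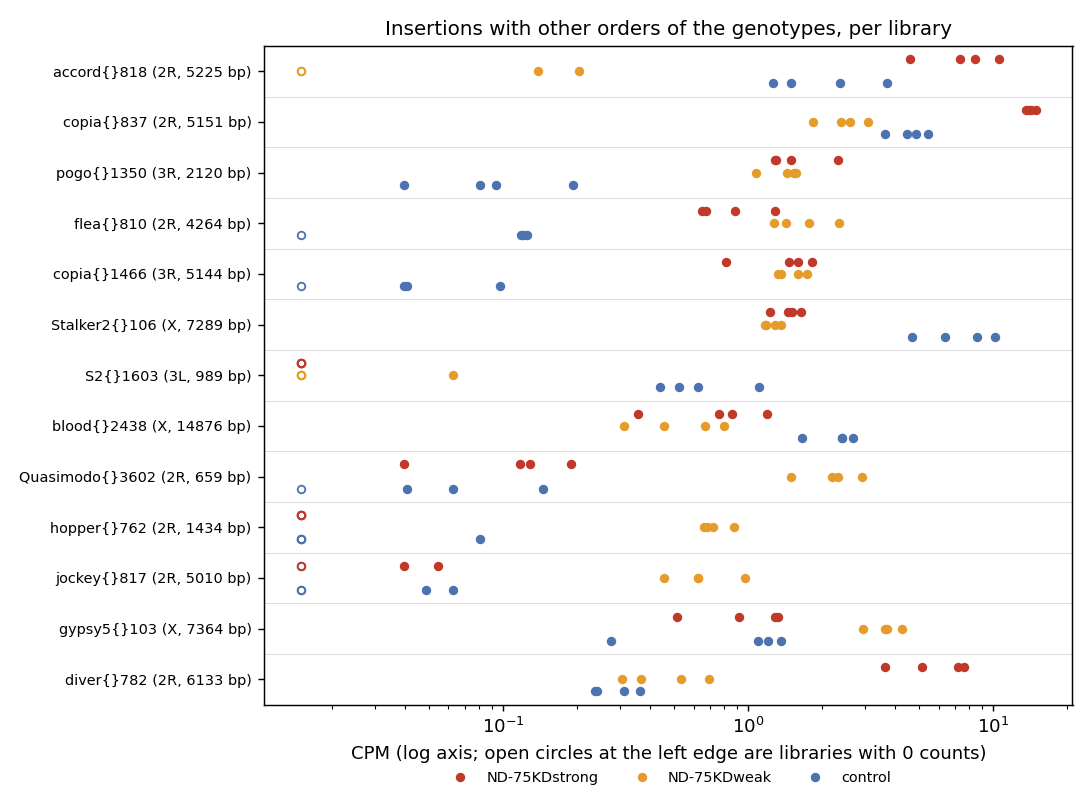
CPM of insertions with other orders of the genotypes in each library (points, log axis, open circles for 0 counts). Stalker2{}106 averaged 1.46 CPM in ND-75KDstrong heads, 1.25 CPM in ND-75KDweak heads and 7.48 CPM in control heads, whereas Quasimodo{}3602 averaged 0.119, 2.24 and 0.0622 CPM.

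The knockdowns were also compared with each other, which involves no control library. Of 407 insertions tested, 41 were higher and 16 lower in ND-75KDstrong than in ND-75KDweak heads, shares of 10.07% and 3.931%. Over all 10638 features tested 8.18% were higher and 3.09% lower, so the insertions were close to the background in both directions. LTR insertions gave 24 higher and 4 lower of 115, telomeric insertions 12 higher and 1 lower of 18, INE-1 1 higher and 3 lower of 148, LINE-like elements 2 higher and 5 lower of 62 and TIR elements 2 higher and 3 lower of 60. The median insertion was at -0.06 log2 units and the median feature at 0.02. Of 17 copia copies tested 14 were higher in ND-75KDstrong heads, and of 14 HeT-A copies 10 were higher. Stalker2{}22 (FBti0019541, X:1954941-1962823), in an intron of the nuclear receptor gene Hr4, was higher by 3.45 ± 0.32 log2 units (adjusted p = 0.000169), and Stalker2{}1001 (FBti0020112, 3L:14825181-14832850) by 1.54 ± 0.24 (adjusted p = 0.00248). INE-1{}2485 (FBti0060546, 2R:5259068-5259406), in an exon of d4, was lower at -2.25 ± 0.36 (adjusted p = 0.00271), as was Cr1a{}3376 (FBti0061437, 2R:5612538-5614340) at -1.28 ± 0.22 (adjusted p = 0.00388).

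Some insertions had 0 counts in all 4 libraries of one genotype and at least 3 counts in every library of another. The share of all features with this pattern was not counted, and library totals differ. The numbers below are therefore descriptions and do not set insertions apart from other features. In ND-75KDstrong heads 7 insertions were read that were at 0 in control heads, and in ND-75KDweak heads 5. ND-75KDstrong libraries read 5 insertions that were at 0 in ND-75KDweak heads, and the reverse held for 4. Only S2{}1603 was at 0 in a knockdown and read in every control library. 412{}880 (FBti0018871, 2R:23914354-23921920), a full-length LTR element in an intron of the cation-chloride cotransporter gene kcc, had 27, 9, 15 and 11 counts in ND-75KDstrong heads, 10 in each ND-75KDweak library and 0 in control heads, at least 17.7-fold and 13.4-fold higher than control. roo{}1039 (FBti0020150, 3L:18528683-18537785), of 9103 bp, had 21, 12, 24 and 9 counts in ND-75KDstrong heads and 0 in all ND-75KDweak and control libraries, at least 18.8-fold and 18.9-fold higher. 297{}1261 (FBti0019333, 3R:8090593-8094012) had 41, 17, 70 and 47 counts in ND-75KDstrong heads, 0 in ND-75KDweak heads and 0, 0, 0 and 4 in control heads, at least 49.9-fold higher than in ND-75KDweak heads. pogo{}916 (FBti0020027, 3L:3051802-3051984) had 11, 6, 32 and 27 counts in ND-75KDweak heads only, at least 29.6-fold and 25.4-fold above ND-75KDstrong and control heads. A reference insertion can be missing from a stock, and presence in the flies' genomes was not analysed here.

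A sum over the FBti copies of a family does not depend on which of them a shared read was assigned to. It leaves out copies without an FBti row and any shared reads that were not counted. Reads from a gene around an insertion remain in it. Of 89 families tested in ND-75KDstrong against control heads, 6 were higher, namely copia, HeT-A, diver, accord, pogo and H, and 0 lower, against 1.51% higher and 0.538% lower over the 10227 features of that fit. Lower families numbered 4 at an unadjusted p below 0.05 and 2 by DESeq2. Of 94 families in ND-75KDweak against control heads, 11 were higher (17.6, Doc2, G6, Stalker, TART-C, copia, flea, gypsy5, invader2, mariner2 and pogo) and 4 lower (S2, Stalker2, accord and blood), against 2.55% and 4.11% of 10151 features. Of 94 families in ND-75KDstrong against ND-75KDweak heads, 9 were higher (Bari1, Doc, H, HeT-A, Stalker2, TART-A, accord, copia and diver) and 4 lower (G6, TART-C, gypsy5 and mdg1), against 8.07% and 3.14% of 10325 features. The 6 higher families in ND-75KDstrong heads were 3 without control replicate 2, and the 11 in ND-75KDweak heads were 6 without ND-75KDweak replicate 1 or 4 or control replicate 2 and 7 without ND-75KDweak replicate 3. The 4 lower families in ND-75KDstrong against ND-75KDweak heads were 2 without ND-75KDstrong replicate 1 or ND-75KDweak replicate 1 or 3.

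Family sums and single copies did not always show the same picture. pogo summed to 3.57 ± 0.628 CPM in ND-75KDstrong heads, 3.57 ± 0.374 CPM in ND-75KDweak heads and 0.989 ± 0.479 CPM in control heads, and was higher by 1.84 ± 0.38 and 1.87 ± 0.36 log2 units in the knockdowns (adjusted p 0.0328 and 0.0111). Stalker2 summed to 17.9, 15.96, 14.95 and 12.61 CPM in ND-75KDstrong heads, 8.521, 6.608, 7.102 and 7.134 CPM in ND-75KDweak heads and 27.48, 18.2, 12.6 and 20.87 CPM in control heads. It passed in ND-75KDweak against control heads (-1.42 ± 0.22, adjusted p = 0.00373) and not in ND-75KDstrong against control heads (-0.37 ± 0.23, adjusted p = 0.627), although Stalker2{}106 alone was lower in both. H summed to 56.5 ± 6.35, 30.1 ± 2.48 and 25.7 ± 6.64 CPM in ND-75KDstrong, ND-75KDweak and control heads (1.13 ± 0.20 in ND-75KDstrong against control, adjusted p = 0.014), most of it from H{}84.

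Calls were set against gene position. In ND-75KDstrong against control heads 19 of 118 insertions outside genes were higher and 3 lower, against 13 higher and 1 lower of 242 in introns and 1 of each of 24 in exons. Over all features 1.78% were higher and 0.589% lower. The 19 included all 9 higher telomeric insertions and several copia copies, so position and family go together here. Position apart from family was not tested. In ND-75KDweak against control heads the counts were 9 higher and 4 lower of 113 outside genes, 8 and 2 of 221 in introns, and 2 and 1 of 24 in exons. Over all features 2.56% were higher and 3.98% lower. Of the 16 called insertions in genes in ND-75KDstrong heads, 11 lay on the strand opposite to the gene, 4 on the same strand and 1 on both relative to overlapping genes. As the library kit does not keep strand, reads from an insertion and from a gene on the other strand cannot be told apart. X held 10 called of 36 tested insertions in ND-75KDstrong against control heads (27.78%), while 0.7817% of the 1663 other X features were called. Chromosome 4 held 6 of 150 (4.00%), all higher, while 0 of its 94 other features were called. These 6 were all HeT-A or TART-A copies, and the X calls included copies of HeT-A and copia.

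Host genes were examined beside their insertions. For 16 called insertions within genes in ND-75KDstrong against control heads, 15 pairs of insertion and gene could be tested and 0 genes were called by edgeR. In ND-75KDweak against control heads 1 gene of 14 pairs was called, and in ND-75KDstrong against ND-75KDweak heads 1 of 21. Over all features, 1.78% were higher and 0.589% lower in the first of these comparisons, 2.56% and 3.98% in the second and 8.18% and 3.09% in the last, so with so few pairs these counts do not set host genes apart from other features. In both cases it was CG17574, the host of accord{}818, and its direction was opposite to that of the insertion. CG17574 had 30.4 ± 6.65 CPM in ND-75KDstrong heads, 43.1 ± 2.13 CPM in ND-75KDweak heads and 28.0 ± 4.23 CPM in control heads. It was higher by 0.65 ± 0.14 log2 units in ND-75KDweak than in control heads (adjusted p = 0.0158), while ND-75KDstrong against ND-75KDweak stood at -0.52 ± 0.14 (adjusted p = 0.0433). Without ND-75KDweak replicate 1, 3 or 4 no host gene was called in ND-75KDweak against control heads, and 2 were called without control replicate 3 or 4. Between the knockdowns no host gene was called without ND-75KDstrong replicate 1, 2 or 3 or ND-75KDweak replicate 1, 2 or 4, and 4 were called without ND-75KDstrong replicate 4. Among nearest genes of called insertions outside genes, only lncRNA:CR40469 was called, in 1 of 5, 1 of 5 and 0 of 8 tested genes for ND-75KDstrong against control, ND-75KDweak against control and ND-75KDstrong against ND-75KDweak.

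Genes that restrain transposable elements were examined beside the insertions. Of 43 genes listed for the piRNA and siRNA pathways and heterochromatin, 42 had a row in the tables. In ND-75KDstrong against control heads 36 were tested and 2 were higher, with a median of 0.12 log2 units against -0.01 for all features, of which 1.78% were higher. These were aub, a Piwi-family protein, at 1.76 ± 0.454, 0.925 ± 0.319 and 0.726 ± 0.118 CPM in ND-75KDstrong, ND-75KDweak and control heads (1.25 ± 0.28 log2 units over control, adjusted p = 0.041), and qin, a Tudor-domain partner of piRNA amplification, at 4.91 ± 0.671, 2.58 ± 0.924 and 1.5 ± 0.31 CPM (1.70 ± 0.22, adjusted p = 0.0016). Of the 36, 0 were lower by edgeR, with 1 at an unadjusted p below 0.05 and 0 by DESeq2. In ND-75KDweak against control heads 1 of 32 was higher, beside 2.56% of all features, the piRNA pathway gene squ, at 0.913 ± 0.425, 1.66 ± 0.232 and 0.283 ± 0.051 CPM in ND-75KDstrong, ND-75KDweak and control heads (2.56 ± 0.29 in ND-75KDweak against control, adjusted p = 0.00051), and 0 were lower, with 2 at an unadjusted p below 0.05 and 0 by DESeq2. Between the knockdowns 2 of 34 were higher in ND-75KDstrong heads, qin and the histone demethylase gene Su(var)3-3, and mino was lower, beside 8.18% higher and 3.09% lower over all features. Counts this small do not set the list apart from other features. The ND-75KDstrong count of 2 was 1 without ND-75KDstrong replicate 2 or 3 or control replicate 1, 2 or 4, and the ND-75KDweak count of 1 was 3 without control replicate 1 and 2 without control replicate 3.

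Host genes that descend from transposable elements were listed as Arc1, Arc2, Gagr and Iris, and all 4 were tested. Arc1, a neuronal gene whose product forms Gag-like capsids, had 215.3 ± 24.2 CPM in ND-75KDstrong heads, 140.5 ± 41.1 CPM in ND-75KDweak heads and 108.5 ± 19.1 CPM in control heads, and was higher in ND-75KDstrong than in control heads by 0.98 ± 0.16 log2 units (adjusted p = 0.008). Its neighbour Arc2 had 11.5, 6.13 and 4.35 CPM on average (1.39 ± 0.21 in ND-75KDstrong against control, adjusted p = 0.0042). Iris, which derives from a retroviral envelope gene, had 120.5 ± 54.4 CPM in ND-75KDstrong heads, 214.3 ± 6.49 CPM in ND-75KDweak heads and 121.8 ± 20.0 CPM in control heads and was higher in ND-75KDweak than in control heads by 0.84 ± 0.14 log2 units (adjusted p = 0.0051). Gagr had 10.9 ± 2.03, 11.2 ± 2.07 and 9.61 ± 1.01 CPM in ND-75KDstrong, ND-75KDweak and control heads and passed in no comparison (edgeR adjusted p 0.822, 0.42 and 0.882). Between the knockdowns Arc2 passed as higher and Iris as lower in ND-75KDstrong heads (adjusted p 0.046 and 0.0499). Neither passed there without ND-75KDstrong replicate 1, 2 or 3 or ND-75KDweak replicate 1, 3 or 4, and 1 did without ND-75KDstrong replicate 4.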

How the data were processed

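The authors sequenced paired-end libraries made with NEBNext Ultra, which does not keep strand. Tools named in the submitters' processing notes were HISAT2 for alignment, featureCounts, fastp and DESeq2. Tool versions were not given in the sources used here, nor was the handling of reads that match several copies. Raw counts per feature were analysed as deposited. Of the deposited tables, the authors' normalized values and FPKM (48 columns) and their own fold changes and p-values were not used. All 2625 coordinates matched the BDGP6 annotation. Insertion sequences were not analysed here, nor were the genes Lasp and armi.

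Every comparison took the 8 libraries of its genotypes and all features, with edgeR 4.0.16 (quasi-likelihood test, TMM scaling) in R 4.3.3 after filterByExpr (minimum count 10, minimum total 15). P-values were adjusted by Benjamini-Hochberg over all features, with a threshold of 0.05. Errors are SD over libraries (n = 4 each) for CPM and SE for fitted log2 fold changes. Groups with 0 counts took a floor of 3 counts, and groups with 1 to 3 counts an exact 95% interval for the ratio. Alternatives were DESeq2 1.42.0, its size factors, other filters, 1 fit of 12 libraries, a replicate block and omitted libraries. The fits were also run on simulated counts of independent features. These held no reads shared between copies, so they do not bear on that limit. Named insertions were the 10 with the smallest p in each direction and comparison among calls without overlap between groups, those called in both knockdowns, and the 10 highest by level or count. HeT-A{}6262, HeT-A{}6268, HeT-A{}6270, HeT-A{}6278, TART-A{}6261, copia{}387, copia{}1467 and the zero-count insertions were chosen after their values were seen. Members and lists were chosen with earlier results of these data known.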

Additional observations from a re-analysis of the deposited data

Results flagged for a closer look

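Of 228 sets of 4 libraries examined, 17 held a library far from the other 3 by Dixon's criterion, which chance gives in about 1 of 20 sets. Telomeric insertions summed to 14.24 CPM in ND-75KDweak replicate 2 and to 23.09 to 24.2 CPM in the other ND-75KDweak libraries. Among copia copies, copia{}1391 stood at 10.36 CPM and copia{}1684 at 21.07 CPM in ND-75KDstrong replicate 3, above the others of that genotype, copia{}631 was at 0.5633 CPM in ND-75KDweak replicate 2 (others 1.064 to 1.094) and copia{}920 at 7.108 CPM in ND-75KDweak replicate 1. copia{}67 had 0.04556 CPM in ND-75KDweak replicate 1 (others 0) and 0.2774 CPM in control replicate 3, and copia{}399 had 1.699 CPM in control replicate 2 (others 1.36 to 1.387).

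For other elements, Stalker2{}22 was at 0.1823 CPM and jockey{}79 at 1.094 CPM in ND-75KDweak replicate 1, and S2{}1603 was at 0.06257 CPM in ND-75KDweak replicate 3 (others 0). hopper{}762 was at 0.08089 CPM in control replicate 2 (others 0) and flea{}810 at 0 CPM in control replicate 1 (others 0.1189 to 0.1252). INE-1{}3385 was at 8.603 CPM in ND-75KDweak replicate 3, and INE-1{}3388 at 3.918 CPM in ND-75KDweak replicate 1 and 5.697 CPM in control replicate 4. The pogo family summed to 0.2774 CPM in control replicate 3, below the 1.133 to 1.283 CPM of the other control libraries.

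For 2 insertions the knockdowns were called in opposite directions against control. ND-75KDstrong against ND-75KDweak heads stood at 6.53 log2 units for accord{}818 and at 2.51 log2 units for copia{}837, a difference that follows from how these insertions were picked and is no separate test. The ND-75KDstrong call of accord{}818 was lost in 5 of 8 omissions of a library and the ND-75KDweak call of copia{}837 in 4 of 8.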

How the results depend on the processing

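None of the 106 fold changes of called insertions and families that were recomputed changed sign. Some lost their call. Counts and shares cannot change sign, so for them only the shifts are given below. Fold changes of HeT-A{}6262, HeT-A{}6268, HeT-A{}6270, TART-A{}6261, copia{}1467 and single genes were not recomputed. With 1 library left out at a time, higher and lower insertions numbered 28 to 39 and 3 to 5 (ND-75KDstrong against control), 13 to 21 and 5 to 13 (ND-75KDweak against control), and 36 to 52 and 11 to 21 (ND-75KDstrong against ND-75KDweak). Higher and lower families numbered 3 to 7 and 0 to 0, 6 to 10 and 3 to 5, and 8 to 11 and 2 to 5 in these comparisons, silencing genes called 1 to 2, 1 to 3 and 2 to 4, genes of transposable element origin 2 to 2, 1 to 1 and 0 to 2, and genes overlapping called insertions 0 to 0, 0 to 2 and 0 to 4.

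In ND-75KDstrong against control, DESeq2 and 1 fit of all 12 libraries each gave 10 higher and 2 lower families, and DESeq2 called 4 silencing genes. Without ND-75KDstrong replicate 4 and control replicate 3 together, 1 family was lower and 1 overlapping gene was called. In ND-75KDweak against control, DESeq2 gave 12 lower insertions, 3 silencing genes and 2 overlapping genes, no filter gave 36 higher and 12 lower insertions and 2 overlapping genes, and the 12-library fit gave 15 lower insertions. Without ND-75KDweak replicate 2 and control replicate 3 together, 32 insertions were higher and 23 lower, 7 families were lower, and 3 silencing genes and 2 overlapping genes were called. In ND-75KDstrong against ND-75KDweak, DESeq2 gave 28 lower insertions, 7 silencing genes and 2 overlapping genes, no filter gave 27 lower insertions and 0 overlapping genes, and DESeq2 size factors or leaving out other transposon features each gave 1 gene of transposable element origin. Without ND-75KDstrong replicate 4 and ND-75KDweak replicate 2 together, 7 silencing genes and 5 overlapping genes were called. The cause of these shifts was not tested.

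Replicate numbers did not pair the samples: deviations of same-numbered libraries from their genotype means, in log CPM, correlated at -0.445 to 0.136. With the replicate block, higher and lower insertions numbered 25 and 4, 20 and 7, and 40 and 14 in the 3 comparisons, and ND-75KDstrong against control gave 3 higher families, 1 silencing gene and 1 gene of transposable element origin, while ND-75KDweak against control gave 2 overlapping genes.

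Insertions outside other annotated features took 0.0396%, 0.0251% and 0.0225% of counts in ND-75KDstrong, ND-75KDweak and control heads, and without the 10 insertions with most counts the shares were 0.0777%, 0.06376% and 0.05974%. Low counts limit most insertions: the median held 13 counts in all.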
